A study of Rattus norvegicus with 10 samples.

Results

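Of the 9003 genes listed for rat splenic M2 macrophages, 7 were followed here for their part in removing short-lived mRNAs: *Zfp36*, *Zfp36l1*, *Zfp36l2*, *Btg1*, *Btg2*, *Zc3h12a* and *Cnot7*. They were chosen by name with earlier results of these data known, and all 7 were in the table. M2 macrophages were sorted from the spleens of WKY/NCrj rats, and 10 RNA-seq libraries were made from 4 groups. The methods give female rats 7 to 12 weeks of age for the nephritis model, without a separate statement for the control rats. The control group (n = 2) was under physiological conditions. The GN group (n = 2) had glomerulonephritis induced with TF78, a mouse monoclonal antibody against the rat glomerular basement membrane, and received no cells. The EV+ (n = 3) and EV- (n = 3) groups came from nephritic rats that also received human adipose-derived mesenchymal stem cells (ASCs) labelled with DiD, a membrane dye. EV+ macrophages were DiD-positive and were taken to have received ASC-derived extracellular vesicles, and EV- macrophages were DiD-negative. Both ASC groups therefore shared the nephritis and the ASC treatment and differed by the dye gate.

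Many cytokine and early-response mRNAs carry AU-rich elements near their 3′ end that mark them for rapid removal. ZFP36 (tristetraprolin) and its relatives ZFP36L1 and ZFP36L2 are zinc finger proteins that bind these elements and recruit the CCR4-NOT complex, which shortens the poly(A) tail. BTG1 and BTG2 bind the catalytic subunits of that complex, of which CNOT7 is one, whereas ZC3H12A (Regnase-1) is an endonuclease that cuts stem-loops in inflammatory mRNAs. In macrophages *Zfp36* and *Btg2* are themselves early-response genes, switched on by inflammatory signals, and loss of ZFP36 in mice causes systemic inflammation through excess TNF.

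Each library held 19270515 to 26617093 reads on the listed genes, so that 3 reads corresponded to 0.113 to 0.153 CPM (reads scaled to library size). The macrophage markers *Lyz2*, *Csf1r*, *Cd68* and *Adgre1* were at 1025 CPM or more in every library, but *Cd163* and *Mrc1*, receptors commonly used to mark M2 macrophages, ranged from 0 to 1.81 CPM. *C1qa*, *C1qb*, *C1qc* and *Spic* did not exceed 11.2 CPM in any library, and *Itgam* reached at most 641 CPM. The summed CPM of the 11 macrophage markers found, of 14 listed, was 24397 and 24732 in control and 28546 to 30635 in the other groups. *Lyz2* alone was 17938 to 19724 CPM in EV-. NK and T cell markers (15 of 17 listed, with *Cd3e* at 0 in control and GN) summed to 367 to 506 CPM in all libraries except EV- replicate 1, where they reached 1185 CPM. *Cd8a* and *Klrk1* made up most of that sum outside EV- replicate 1, and 6 of the 15 markers were higher in all 3 EV- libraries than in any other library. These were *Prf1* (24.5 to 335 CPM against at most 18.4), *Ccl5* (9.07 to 126 against 5.78), *Nkg7* (5.68 to 75.2 against 5.08), *Gzma* (4.12 to 49.95 against 2.34), *Gzmb* (2.96 to 50.7 against 1.76) and *Cd3e* (0.306 to 2.09 against 0.0421), and *Prf1* was called in EV- against control (adjusted p = 0.0980 by limma). That call was kept in 10 of 21 alternative fits. *Cd8a* was called higher than control in EV+ and in EV-, each kept in 18 of 21. The part of these cells in the EV- differences was not tested. B cell markers summed to 323 to 464 CPM and neutrophil markers to 550 to 745 CPM, and erythroid markers did not exceed 7.26 CPM. These are bulk libraries, so fewer cells of a type and less RNA per cell cannot be told apart in any of the differences below.

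The promoters of *Zfp36* and *Btg2*, whose mRNAs changed between groups, are shown beside that of *Btg1*, the closest relative of *Btg2* here, which showed no called change. Each is the 250 bases before the RefSeq start of the gene on the GRCr8 build, 5′ to 3′ on the strand of the gene. Capitals mark matches to 6 motifs searched on both strands, which were the cAMP response element (CRE) TGACGTCA, its core TGACG, the AP-1 site TGANTCA, the CCAAT box, the TATA box TATAAA and the CArG box bound by serum response factor. The CRE contains the core on both strands.
Zfp36 (chr1:92799109-92799358, minus strand): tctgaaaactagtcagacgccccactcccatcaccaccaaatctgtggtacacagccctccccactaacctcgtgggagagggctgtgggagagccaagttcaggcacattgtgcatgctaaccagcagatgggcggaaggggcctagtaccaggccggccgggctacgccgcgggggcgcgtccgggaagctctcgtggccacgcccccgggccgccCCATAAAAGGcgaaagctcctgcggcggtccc
Btg2 (chr13:48087691-48087940, minus strand): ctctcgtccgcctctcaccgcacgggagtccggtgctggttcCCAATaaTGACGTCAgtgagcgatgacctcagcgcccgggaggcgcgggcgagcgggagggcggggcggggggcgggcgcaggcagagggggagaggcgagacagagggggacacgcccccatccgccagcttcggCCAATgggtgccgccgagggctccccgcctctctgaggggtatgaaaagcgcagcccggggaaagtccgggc
Btg1 (chr7:33227899-33228148, plus strand): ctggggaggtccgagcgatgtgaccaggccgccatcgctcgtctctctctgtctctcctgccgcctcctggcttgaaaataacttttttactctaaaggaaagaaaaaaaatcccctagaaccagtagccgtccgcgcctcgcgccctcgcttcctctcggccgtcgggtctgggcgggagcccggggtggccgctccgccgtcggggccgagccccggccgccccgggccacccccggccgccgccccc

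The only match in the *Zfp36* promoter was a CArG box, CCATAAAAGG, starting 32 bases before the gene. A CArG box was present in 1.19% of the 7292 promoters of genes in the table and in 1.5% of all 33469 promoters. The *Btg2* promoter held a full CRE starting 201 bases before the gene and CCAAT boxes at 208 and 72 bases. The full CRE was found in 3.17% of promoters of genes in the table, and CCAAT in 36.3%. None of the motifs occurred in these 250 bases of *Btg1*. Promoters of 6 of the 7 genes were matched, without *Cnot7*. Those of *Zfp36l1* (AP-1 site, CCAAT and TATAAA), *Zfp36l2* (CRE core and CCAAT) and *Zc3h12a* (CRE core) each held other matches, where the AP-1 site was present in 4.29%, TATAAA in 6.10% and the core in 30.8% of the promoters of genes in the table. These matches describe letters in a short window and were not related to binding or to the expression values.

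**Figure D1:**
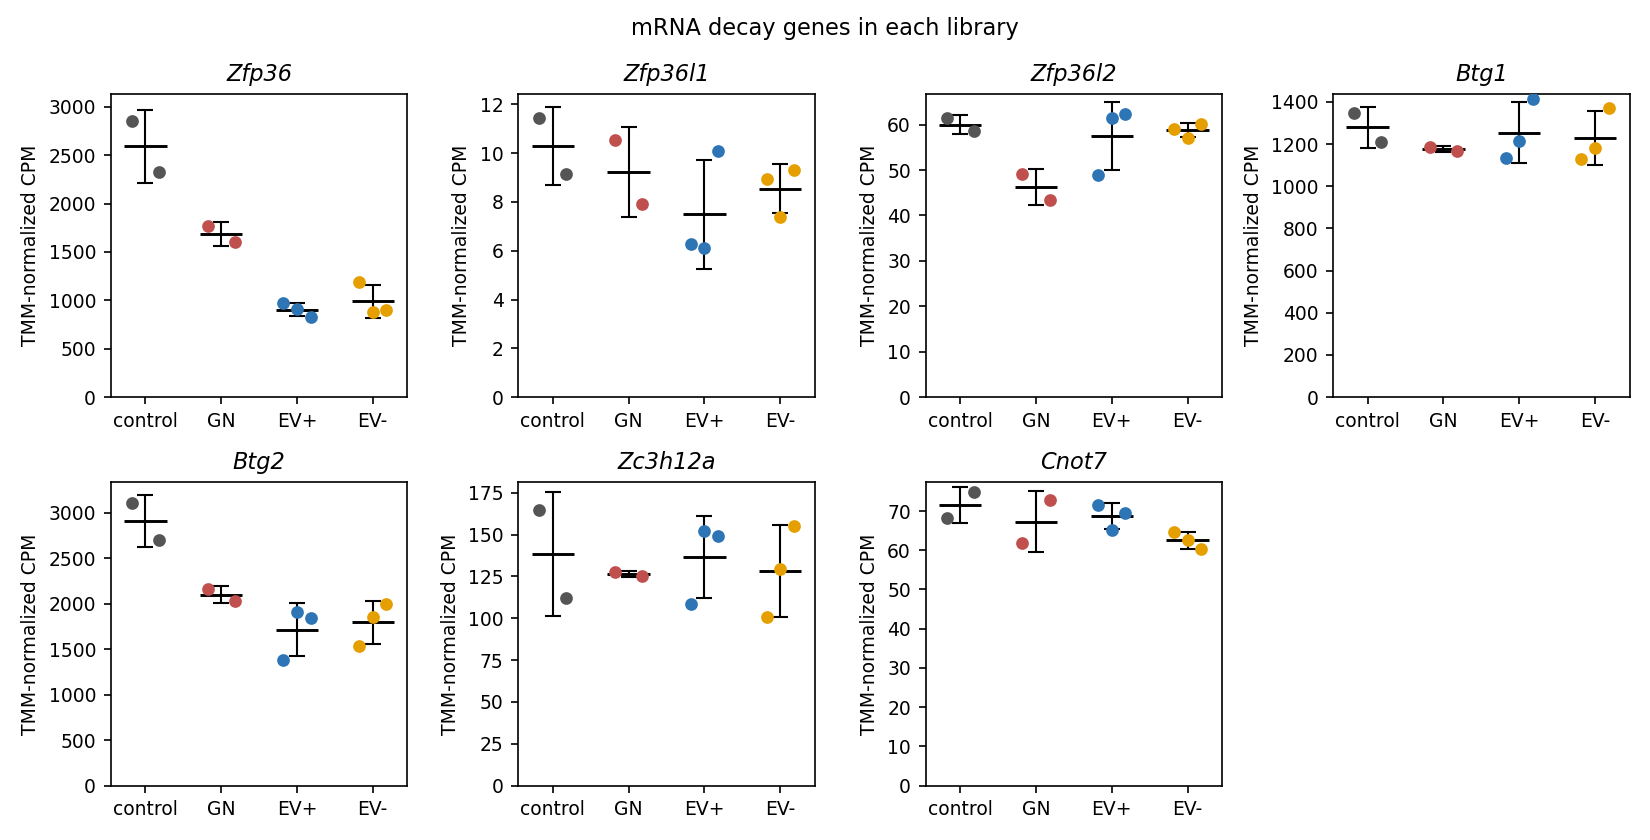
TMM-normalized CPM of the 7 mRNA decay genes in each of the 10 libraries (points), with the group mean (long bar) and SD (whiskers), each axis starting at 0. Zfp36 was highest in control, lower in GN and lowest in both ASC groups, with 831 to 1186 CPM in EV+ and EV- against 2326 and 2855 CPM in control, whereas Btg1 and Cnot7 stayed within a narrow range.

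*Zfp36* differed most among the 7 genes in every comparison except EV+ against EV-. Its level was 2855 and 2326 CPM in control, compared with 1770 and 1598 CPM in GN. It was 972, 912 and 831 CPM in EV+ and 1186, 882 and 896 CPM in EV-. Every nephritic library was below both control libraries, and every library of both ASC groups was below both GN libraries, whereas EV+ and EV- overlapped. The group means were 2591 ± 374 CPM in control (SD, n = 2), 1684 ± 122 CPM in GN (n = 2), 905 ± 70.8 CPM in EV+ (n = 3) and 988 ± 172 CPM in EV- (n = 3). Relative to the control mean this left 65.0% in GN, 34.9% in EV+ and 38.1% in EV-. The counts behind these values were deep, with at least 17297 reads on *Zfp36* in each library.

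*Btg2*, a tumour suppressor of the BTG/TOB family, had a similar order but a smaller range. Its level was 3109 and 2705 CPM in control, compared with 2164 and 2033 CPM in GN. It was 1381, 1912 and 1846 CPM in EV+ and 1536, 1859 and 1992 CPM in EV-. All nephritic libraries were below both control libraries, and the highest ASC library was just under the lower GN library. The EV+ and EV- values overlapped, with replicate 1 the lowest in each. The means were 2907 ± 286 CPM in control, 2099 ± 92.4 CPM in GN, 1713 ± 290 CPM in EV+ and 1796 ± 234 CPM in EV-, so that 72.2%, 58.9% and 61.8% of the control mean was left in GN, EV+ and EV-, respectively.

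*Btg1*, which shares the deadenylase-binding domain of *Btg2*, was present at 1347 and 1210 CPM in control, compared with 1185 and 1165 CPM in GN. It was 1133, 1213 and 1414 CPM in EV+ and 1130, 1181 and 1372 CPM in EV-. GN was below control without overlap, but the lowest and highest of all values were both in the ASC groups. The mean of *Btg1* was 91.9% of the control mean in GN, 98.0% in EV+ and 96.0% in EV-.

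The 2 relatives of *Zfp36* were expressed without a called change. *Zfp36l2* was at 61.5 and 58.6 CPM in control, 49.0 and 43.4 CPM in GN, 48.9, 61.5 and 62.2 CPM in EV+, and 59.1, 57.1 and 60.2 CPM in EV-. Both GN libraries were below control and below all EV- libraries, while EV+ replicate 1 lay between the GN libraries. *Zfp36l1* was at 11.4 and 9.16 CPM in control, 10.5 and 7.91 CPM in GN, 6.29, 6.10 and 10.1 CPM in EV+, and 8.94, 7.39 and 9.30 CPM in EV-. It had 145 to 297 reads a library, the fewest of the 7 genes, and all of its groups overlapped.

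Neither nuclease gene showed a called change. *Zc3h12a* was at 165 and 112 CPM in control, 127 and 125 CPM in GN, 109, 152 and 149 CPM in EV+, and 101, 129 and 155 CPM in EV-, and the groups overlapped throughout. Its lowest value in each ASC group was in replicate 1, as for *Btg2*. *Cnot7* was at 68.3 and 74.7 CPM in control, 61.8 and 72.8 CPM in GN, 71.6, 65.0 and 69.4 CPM in EV+, and 64.6, 62.7 and 60.3 CPM in EV-. All 3 EV- values were below control and below EV+, by a narrow margin.

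The comparison of GN with control set nephritic rats without ASCs against rats under physiological conditions. No antibody injection is described for the control rats, so nephritis and the injection itself cannot be told apart. *Zfp36* fell by 0.62 on the log2(CPM + 1) scale (SE 0.14, adjusted p = 0.0480 by limma), to 65.3% of control. It was the only gene of the 7 called at a false discovery rate under 0.1, against 1.75% of all 9003 genes in either direction and 0.822% lower. This call was lost when control replicate 1 (adjusted p = 0.376), GN replicate 1 (0.165) or GN replicate 2 (0.430) was left out. *Btg2* differed by -0.47 (SE 0.15, adjusted p = 0.200) and was not called, although it was called by edgeR's likelihood-ratio test (0.0987), by DESeq2 (0.050) and in a limma fit of these 2 groups alone (0.0379), which called 3.24%, 3.27% and 2.12% of all genes, respectively. *Zfp36l2* differed by -0.37 (95% CI -0.64 to -0.10, adjusted p = 0.258). The other 4 genes differed by between -0.15 and -0.09. In 4 of the 7 genes (*Zfp36*, *Zfp36l2*, *Btg1* and *Btg2*) GN was below control without overlap, while 22% of all genes did the same with these 2 libraries a group.

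The comparisons of EV+ and EV- with GN asked what differed in nephritic rats given ASCs. *Zfp36* fell by 0.90 in EV+ relative to GN (SE 0.12, adjusted p = 0.0156 by limma), the second smallest p of the table, leaving 53.7%. In EV- it fell by 0.78 (SE 0.12, adjusted p = 0.0147), leaving 58.2%. It was the only gene of the 7 called in either comparison, where 0.122% of all genes were called for EV+ (11 genes, or 30 with the replicate number as a block) and 0.378% for EV- (34, or 53). Genes called lower were 0.0555% and 0.322% of all, respectively. Both calls were lost without GN replicate 1 (adjusted p = 0.352 in EV+ and 0.332 in EV-) or GN replicate 2 (0.135 and 0.108). Without EV- replicate 1, the library with the most NK and T cell marker reads, the difference in EV- was -0.92 (adjusted p = 0.00336). *Btg2* differed by -0.31 in EV+ (95% CI -0.59 to -0.02, adjusted p = 0.686) and by -0.23 in EV- (95% CI -0.52 to 0.05, adjusted p = 0.727). *Zfp36l2* was above GN, by 0.30 in EV+ (adjusted p = 0.644) and by 0.34 in EV- (adjusted p = 0.417), neither of them called. Non-overlapping values below GN were seen for *Zfp36* and *Btg2* in both comparisons, which was the case for 11.8% of all genes in EV+ and 12.8% in EV-. *Zfp36l2* was higher in EV- without overlap, as were 12.6% of all genes. The 2 comparisons share the GN libraries, and same-numbered EV+ and EV- libraries were taken as pairs, so they are not independent of each other.

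**Figure D2:**
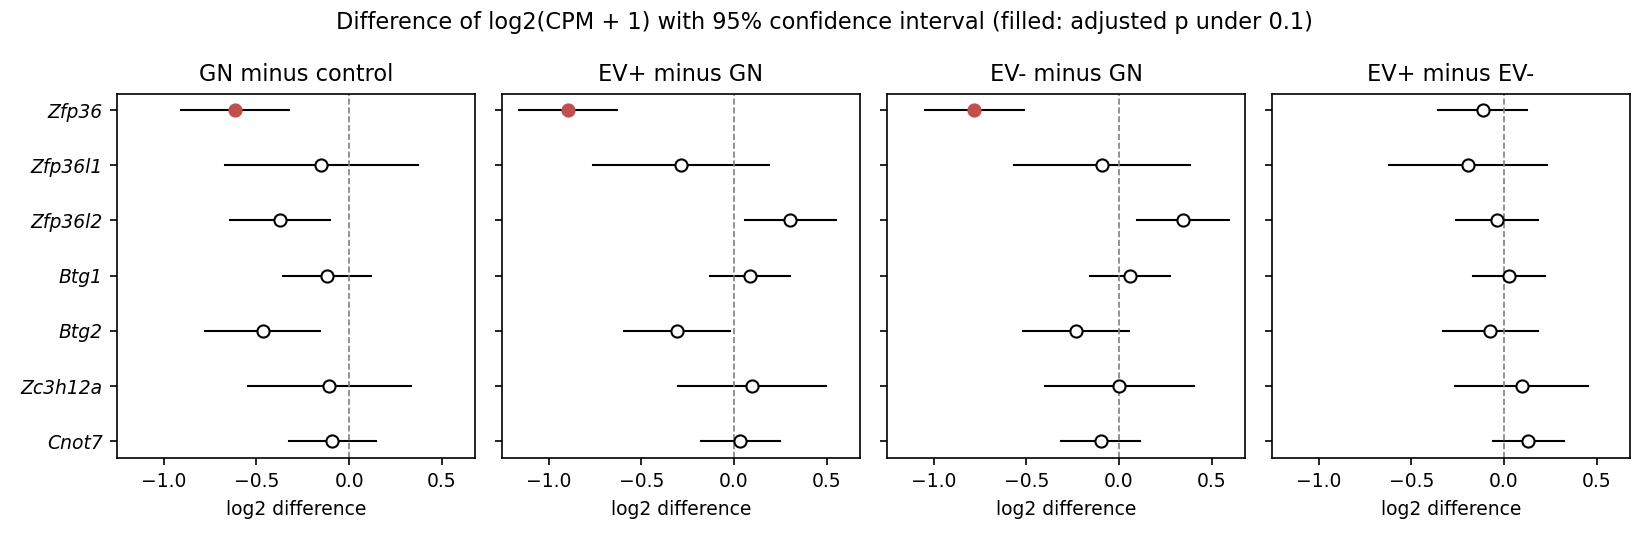
Differences of log2(CPM + 1) with 95% confidence intervals from limma for the 7 genes in 4 comparisons, where filled points were called at a false discovery rate under 0.1. Only Zfp36 was called, at -0.62, -0.90 and -0.78 in the first 3 panels, and all 7 intervals of EV+ minus EV- include 0.

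EV+ and EV- macrophages, which differ by the dye gate, were compared next. None of the 7 genes was called by limma, edgeR's quasi-likelihood and likelihood-ratio tests or DESeq2, and none had an unadjusted p under 0.05, while limma called 0.0222% of all genes (2 genes, or 5 with the replicate block) and gave 411 genes an unadjusted p under 0.05. The quasi-likelihood test called 0.0222%, the likelihood-ratio test 0.633% and DESeq2 0.378% of all genes. The difference was -0.12 for *Zfp36* (95% CI -0.35 to 0.12) and -0.07 for *Btg2* (95% CI -0.33 to 0.18). These intervals come from the fit without pairing, and with 3 libraries a group differences inside them could not be resolved. Without EV- replicate 1 the *Zfp36* difference was 0.023. *Cnot7* was the only gene whose values did not overlap, at 65.0 to 71.6 CPM in EV+ against 60.3 to 64.6 CPM in EV- (difference 0.13, 95% CI -0.06 to 0.32), and 4.25% of all genes were higher in EV+ without overlap.

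Against control, both ASC groups carried the nephritis and the treatment together. *Zfp36* fell by 1.51 in EV+ (SE 0.12, adjusted p = 2.02e-05 by limma), leaving 35.1%, and it fell by 1.396 in EV- (SE 0.12, adjusted p = 4.41e-05), leaving 38.0%. By p it ranked 4 and 5 of the 9003 genes. *Btg2* fell by 0.77 in EV+ (SE 0.13, adjusted p = 0.00613), leaving 58.5%, and by 0.70 in EV- (SE 0.13, adjusted p = 0.0159), leaving 61.6%. These 2 of the 7 genes were called in each comparison, against 3.63% of all genes for EV+ (1.81% lower) and 2.84% for EV- (1.56% lower). The EV- call of *Btg2* was lost without control replicate 1 (adjusted p = 0.171), whereas *Zfp36* was called in both comparisons with any 1 library left out. The values of these 2 genes, and of *Cnot7* in EV-, did not overlap with control, against 15.6% of all genes in EV+ and 14.1% in EV- that were lower without overlap. The other 5 genes differed from control by between -0.44 (*Zfp36l1* in EV+, 95% CI -0.91 to 0.04) and -0.01 (*Zc3h12a* in EV+). In the test among the 4 groups *Zfp36* (adjusted p = 5.35e-05) and *Btg2* (adjusted p = 0.0229) were called, against 2.57% of all genes, and the *Btg2* call was lost without control replicate 1 (adjusted p = 0.262) or control replicate 2 (0.112).

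Ratios within a library do not depend on library scaling, and they set the 2 genes with called changes beside their relatives. The CPM of *Zfp36* was 46.4 and 39.7 times that of *Zfp36l2* in control and 36.1 and 36.8 times in GN. It was 19.9, 14.8 and 13.4 times in EV+ and 20.1, 15.4 and 14.9 times in EV-. The ratio of *Btg2* to *Btg1* was 2.31 and 2.24 in control and 1.83 and 1.75 in GN, and 1.22 to 1.58 in the 6 ASC libraries. Neither ratio overlapped between control, GN and the ASC groups, and how often other gene pairs did the same was not examined. The mean of *Zfp36l2*, a denominator here, was itself 77.0% of control in GN, 95.8% in EV+ and 98.0% in EV-. The ratio of *Zfp36* to *Btg2* was 0.918 and 0.860 in control and 0.818 and 0.786 in GN, and then split by replicate number. It was 0.704 in EV+ replicate 1 and 0.772 in EV- replicate 1, but 0.450 to 0.477 in the other 4 ASC libraries. Replicate 1 had the highest *Zfp36* and the lowest *Btg2* of its group in both ASC groups. The summed CPM of 7 heat shock genes was also highest in replicate 1 of both groups, at 1711 CPM in EV+ and 2159 CPM in EV- against 1331 to 1388 CPM in the other 4 libraries. It was 2161 and 2164 CPM in control, compared with 1570 and 1901 CPM in GN. Its part in the result was not tested. These ratios compare libraries for the same pair of genes and say nothing of transcript numbers between genes, since the values are not scaled for length.

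**Figure D3:**
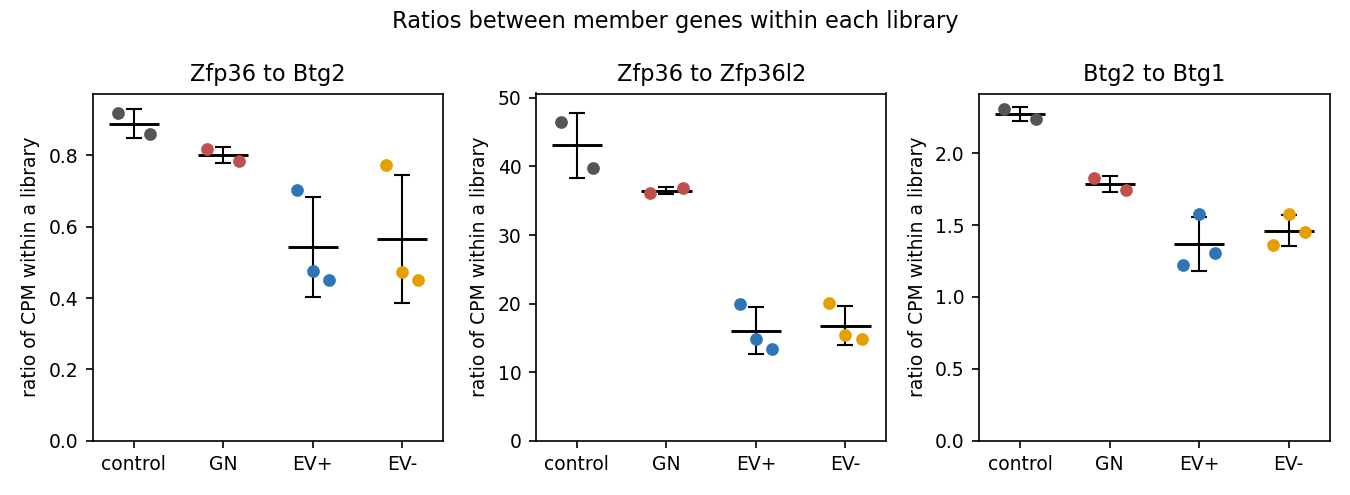
Ratio of CPM between pairs of the 7 genes within each library (points), with the group mean (long bar) and SD (whiskers), each axis starting at 0. Zfp36 relative to Zfp36l2 was 36.1 to 46.4 in control and GN and 13.4 to 20.1 in EV+ and EV-, and in the first panel the highest point of each ASC group is replicate 1.

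Genes with a profile like that of *Zfp36* over the 10 libraries were then sought. Likeness was measured as the root-mean-square (RMS) difference of log2(CPM + 1) after each gene was centred on its own mean, among 6369 genes with a mean of at least 10 CPM. *Niacr1* (0.126), a nicotinic acid receptor gene, was the nearest, followed by *Jund* (0.158), *Ccl3* (0.192), *Fos* (0.200) and *Rhob* (0.203). The median of all candidates was 0.626, and *Zfp36* itself varied by 0.612 about its mean. *Jund* and *Fos* encode AP-1 subunits and *Ccl3* a chemokine. *Jund* was 1039 and 1307 CPM in control, 687 to 715 CPM in GN, 390 to 491 CPM in EV+ and 426 to 612 CPM in EV-. *Ccl3* was 563 and 825 CPM in control, 325 CPM in both GN libraries, 169 to 214 CPM in EV+ and 178 to 253 CPM in EV-. *Btg2* was not among the nearest genes of *Zfp36* (0.405). Its own nearest profiles were *G0s2* (0.0699), an inhibitor of triglyceride lipase, the kinase gene *Pim3* (0.109), *Ier5* (0.113), the chemokine receptor-like gene *Ccrl2* (0.114) and *Ier2* (0.114), where the candidate median was 0.351. These measures describe 10 libraries that share 4 groups and carry no test.

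**Figure D4:**
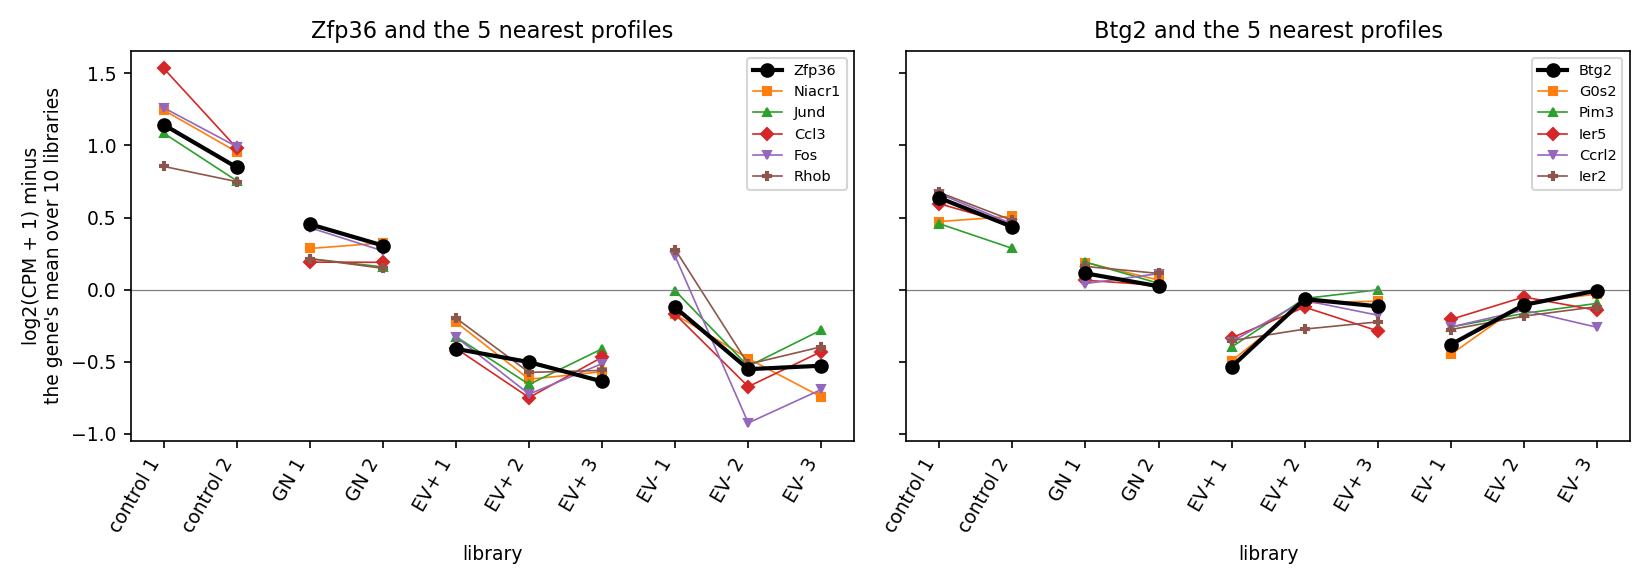
Difference of log2(CPM + 1) from the mean of each gene over the 10 libraries, for Zfp36 (left) and Btg2 (right) in black with the 5 genes of nearest profile in colour, with lines joining libraries only to guide the eye. Profiles near Zfp36 are highest in control, and all but Rhob in EV- replicate 1 are lower in each ASC library than in both GN libraries, while those near Btg2 are, like Btg2 itself, all lowest in EV+ replicate 1.

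The partners through which these proteins act were next examined as 73 genes on 8 lists. They covered the other CCR4-NOT subunits, BTG/TOB family members, PAN2-PAN3, PARN and poly(A)-binding proteins, other Regnase and Roquin genes, other AU-rich element binding proteins, decapping factors, the exosome, and the kinases, phosphatases and adaptors of ZFP36 proteins. None of the 73 was called in GN against control, in EV+ or EV- against GN, or in EV+ against EV-, where 1.75%, 0.122%, 0.378% and 0.0222% of all genes were called, so that a count of 0 lies near the background. Their median absolute difference was 0.08 in GN against control, compared with 0.14 for all genes, and it was 0.06 to 0.07 in the 3 others, compared with 0.08 to 0.11. Against control it was close to that of all genes, at 0.13 compared with 0.14 in EV+ and 0.11 compared with 0.13 in EV-. The scaffold gene *Cnot1* was 88.8 to 106 CPM in control, 95.5 to 97.0 CPM in GN and 90.8 to 125 CPM in the ASC libraries. *Cnot8*, the paralogue of *Cnot7*, was 311 to 336 CPM in all 10 libraries. *Ybx1*, the most abundant of the other AU-rich element binding genes, was 370 to 454 CPM, and *Elavl1*, which encodes an mRNA-stabilizing protein of AU-rich elements, was 147 to 176 CPM. *Ywhaz*, a 14-3-3 adaptor that binds phosphorylated ZFP36, was 2385 to 2576 CPM. Against control, *Tob1* (-0.53, SE 0.15, adjusted p = 0.0853 by limma) and *Zc3h12d* (-0.67, SE 0.18, adjusted p = 0.0721) fell in EV+, and the deadenylase gene *Cnot6l* (-0.41, adjusted p = 0.0494) fell in EV-. Of the 73 genes, 2 were thus called in EV+ and 1 in EV-, or 1 and 2 with the replicate block. Over all genes 1.81% and 1.56% were called lower, so that these counts also lie near the background. These 3 calls were kept in 8, 9 and 16 of 21 alternative fits, respectively, and *Tob1* (adjusted p = 0.126) and *Zc3h12d* (0.104) were not called with the replicate block.

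**Figure D5:**
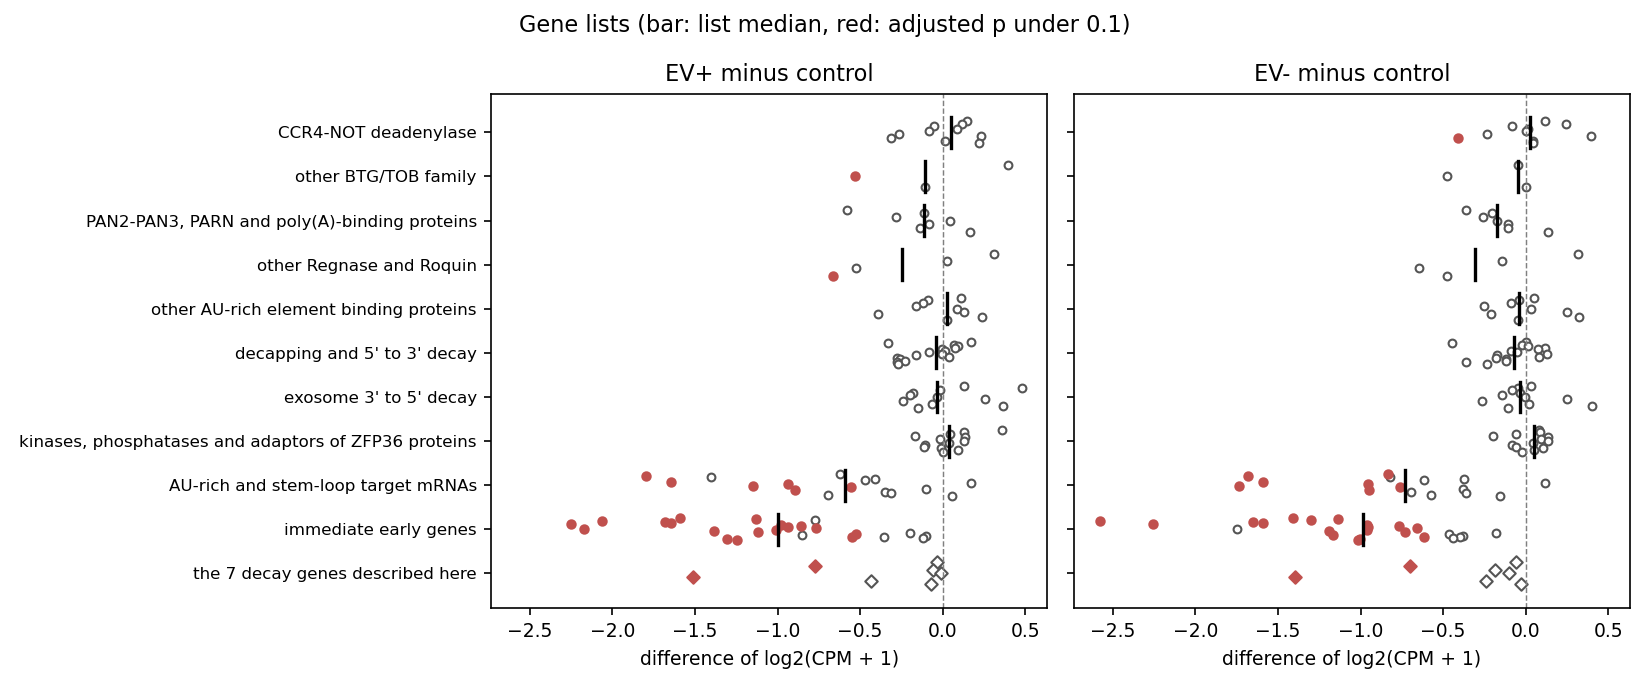
Difference of log2(CPM + 1) from control for each gene (points) of 10 lists and for the 7 decay genes (diamonds), in EV+ (left) and EV- (right), where red marks a false discovery rate under 0.1 and the black bar the list median. Genes of the decay machinery lie on both sides of 0, with 2 of 73 called in EV+ and 1 in EV-, all lower. Over all genes 1.81% were called lower in EV+ and 1.56% in EV-. The immediate early genes have medians of -0.996 and -0.984.

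Short-lived mRNAs that are textbook targets of ZFP36 or Regnase-1 were represented by 16 of 24 listed genes. In GN 2 of them were called lower than control and none higher, against 0.822% of all genes called lower. By direction 12 were below control and 4 above, with a median of -0.48. None was called in EV+ against GN (median -0.39) or in EV+ against EV- (median 0.05). In EV- against GN 2 were called lower (median -0.34, 0.322% of all genes called lower). The 2 were *Ccl2* (-0.99, adjusted p = 0.0833 by limma) and *Il10* (-1.17, adjusted p = 0.0810), and both calls were lost without GN replicate 1, GN replicate 2 or EV- replicate 1. The *Ccl2* call was also lost without either control replicate, EV+ replicate 3 or EV- replicate 3, and the *Il10* call without EV- replicate 2. With the replicate block *Il10* was not called in EV- against GN (adjusted p = 0.116). That fit called 2 targets lower in EV+ against GN and 3 in EV-, against 20 and 41 of all 9003 genes. Relative to control 6 were called lower in EV+ (median -0.59, 1.81% of all genes called lower) and 7 in EV- (median -0.73, 1.56% called lower). The median of all genes lay between -0.01 and 0.01 in each comparison. *Ccl3* fell in GN (-1.07, adjusted p = 0.00786 by limma), in EV+ (-1.80, adjusted p = 2.62e-05) and in EV- (-1.68, adjusted p = 5.32e-05) relative to control. *Il10*, an anti-inflammatory cytokine gene, was 17.0 and 25.2 CPM in control, 12.7 and 14.7 CPM in GN, 6.11 to 11.99 CPM in EV+ and 4.89 to 6.54 CPM in EV-, and it fell relative to control in EV+ (-1.15, adjusted p = 0.0232) and in EV- (-1.74, adjusted p = 0.00148). The GN call of *Ccl3* was lost without GN replicate 1, and the EV+ call of *Il10* without control replicate 1. *Fos* fell relative to control in EV+ (-1.65, adjusted p = 0.00160) and in EV- (-1.59, adjusted p = 0.00281). *Il1b* was 3790 and 5157 CPM in control and 2368 to 3451 CPM in the nephritic groups, and it fell relative to control in GN (-0.64, adjusted p = 0.0772), in EV+ (-0.56, adjusted p = 0.0624) and in EV- (-0.76, adjusted p = 0.0141). Its GN call was lost without control replicate 1, GN replicate 1 or GN replicate 2, its EV+ call without those libraries or EV+ replicate 1 or 2, and its EV- call without control replicate 1. *Tnf*, the best known target of ZFP36, was at 0.274 to 1.73 CPM in all libraries and was not called. Fewer targets were called lower than control without control replicate 1, as were fewer of all genes. Relative to control the target median ranged from -0.71 to -0.29 in GN over all alternative settings. It ranged from -0.89 to -0.44 in EV+ and from -0.95 to -0.48 in EV-.

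Immediate early genes, which respond within minutes to a stimulus and to which *Zfp36* and *Btg2* belong by their usual behaviour, were represented by 24 of 25 listed genes. *Fos*, *Ier3* and *Myc* are on this and the target list. In GN 7 were called lower than control and none higher, against 0.822% of all genes called lower. By direction 22 were below control and 2 above (median -0.55). Relative to GN 2 were called lower in EV+ and 3 in EV- (both medians -0.48), against 0.0555% and 0.322% of all genes. With the replicate block 6 and 8 were called lower, against 20 and 41 of all 9003 genes in that fit. None was called between EV+ and EV- (median -0.02). Relative to control 18 were called lower in each ASC group and none higher, against 1.81% and 1.56% of all genes called lower. The medians were -0.996 in EV+ and -0.984 in EV-. *Gadd45b* (-0.98 in EV+, adjusted p = 3.55e-05), *Ier2* (-0.86, 3.55e-05), *Atf3* (-1.59, 4.16e-05) and *Junb* (-1.01, 4.16e-05) had the smallest adjusted p of the list, against control by limma. The summed CPM of the list was 29248 and 24550 in control, 19848 and 17931 in GN, 13268 to 15003 in EV+ and 13309 to 15020 in EV-, in the same order as *Zfp36*. The summed heat shock CPM was highest in control as well, and its part in these differences was not tested. Spleens were digested with collagenase, and cells were isolated with beads and sorted before RNA was extracted. The part of this handling was not tested either. Fewer early genes were called lower than control without control replicate 1, and fewer in GN without GN replicate 1 or 2. Their calls relative to GN were lost without GN replicate 1 or 2. Counts over all genes also fell in these fits, which leave 1 library in a group. Relative to control the list median ranged from -0.66 to -0.41 in GN over all alternative settings. It ranged from -1.11 to -0.89 in EV+ and from -1.07 to -0.86 in EV-. Without EV- replicate 1, 6 early genes were called lower than GN in each ASC group. Over all 9003 genes 10 were called lower in EV+ and 31 in EV- in that fit.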

How the data were processed

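The table holds a normalized signal, TMM-normalized CPM, that the authors made by sorting splenic M2 macrophages, sequencing SMART-Seq v4 libraries as paired ends, aligning with STAR (2.5.3) to rn6, counting on RefSeq genes with HTSeq (0.6.0, intersection-strict), removing genes with a maximum CPM under 1 and applying TMM in edgeR. Strandedness of the counting is not given in the sources used here. The smallest row maximum was 1.01 CPM, so genes under the filter could not be tested, and 18 symbols had been turned into dates. All deposited values were whole reads times the worth of 1 read (100%, tolerance 0.01 reads), which recovered 19270515 to 26617093 reads a library. The reads carry no molecular identifiers, so the floor of 3 reads covers counting error only.

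Groups came from the sample labels, and the methods call the replicates biological. The main test was limma (3.58.1) in R (4.3.3) with an intensity trend on log2(CPM + 1), with 1 as the pseudocount. It used all 10 libraries in 1 fit (6 residual degrees of freedom), with Benjamini-Hochberg adjustment over 9003 genes and calls at a false discovery rate under 0.1. Differences on this scale understate those of low genes. Alternatives were edgeR (4.0.16) and DESeq2 (1.42.0) on the recovered reads, RLE factors, library totals, a pseudocount of 0.1, no trend, a mean of at least 5 CPM, a threshold of 0.05, a replicate block, fits restricted to the groups in a comparison, and leaving out each library. The procedure was tested on simulated data.

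Labels give shared replicate numbers but no pairing. Residuals of same-numbered EV+ and EV- libraries correlated at 0.203, 0.295 and 0.122 across genes, so these numbers were taken to pair EV+ and EV- libraries, whereas control and GN gave 0.088. The main fit left the numbers out, so its intervals and p of EV+ against EV- are unpaired. The replicate block spanned all 4 groups, although pairing of GN with the ASC libraries was not examined. Blocked counts relative to GN rest on that assumption. The blocked fit is printed where it removes a call named here or changes a count given here by over 1.5 times.

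The 7 genes and all lists were chosen with earlier results of these data known, so the lists give no independent support. Of each list the text names up to 4 called genes by smallest adjusted p, or, where fewer than 2 were called, abundant members, and *Tnf*, *Cnot1*, *Elavl1* and *Ccl2* after their values were seen. The nearest profiles were the 5 genes of smallest RMS difference for each called gene. *Cnot9* is listed as *Rqcd1*. Sequences are from RefSeq (GRCr8), and since the table was made on rn6 no coordinates are given for expression values. Figures and lists used Python (3.11.15) with pandas (2.3.3) and numpy (2.4.6).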

Additional observations from a re-analysis of the deposited data

How the results depend on the processing

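Over 42 pairwise differences of the 7 genes and 22 alternative settings, 889 values were refitted, of which 840 kept their direction and their side of the threshold, 12 kept the direction but lost the call, 4 gained a call and 33 changed sign. No difference that had been called changed sign. Of the 7 genes, GN against control called 2 by edgeR's likelihood-ratio test, by DESeq2 and in the fit of those groups only, but 0 without the intensity trend. Without the trend 0 were called in EV+ against GN and 0 in EV- against GN, where *Zfp36* had adjusted p of 0.235, 0.210 and 0.197 in these 3 comparisons, and 1 was called in EV- against control and 1 among the 4 groups, since *Btg2* was lost (0.128 in EV- against control). Leaving out each library gave 0 to 2 calls in GN against control, 0 to 1 in EV+ and in EV- against GN, 1 to 2 in EV- against control and among the 4 groups, 2 in EV+ against control and 0 in EV+ against EV-. The value of *Zfp36* without 1 library ranged from -1.66 to -1.36 in EV+ and from -1.54 to -1.25 in EV- against control, from -0.97 to -0.82 and from -0.92 to -0.71 against GN, and from -0.76 to -0.47 in GN against control.

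Differences that changed sign were small and not called. With library totals they were *Zc3h12a* in EV+ against control (0.0227) and *Zfp36l2* in EV- against control (0.0184). With the replicate block they were *Zc3h12a* in EV+ against GN (-0.012) and, in EV- against GN, *Zc3h12a* (-0.11) and *Btg1* (-0.028), and the block changed no call among the 7 genes. With 1 library left out, *Zc3h12a* ranged from -0.38 to 0.17 in GN against control, -0.28 to 0.26 in EV+ and -0.38 to 0.17 in EV- against control, -0.15 to 0.17 in EV- against GN and -0.0684 to 0.25 in EV+ against EV-. *Btg1* ranged from -0.12 to 0.0444 in EV+ and -0.14 to 0.016 in EV- against control, -0.00339 to 0.157 in EV+ and -0.0243 to 0.12 in EV- against GN, and -0.0619 to 0.11 in EV+ against EV-. *Cnot7* ranged from -0.21 to 0.0265 in GN and -0.12 to 0.00758 in EV+ against control, and -0.0834 to 0.15 in EV+ and -0.22 to 0.017 in EV- against GN. *Zfp36l1* ranged from -0.34 to 0.0368 in GN against control and -0.28 to 0.0936 in EV- against GN. *Zfp36l2* ranged from -0.13 to 0.0429 in EV+ and -0.0634 to 0.00546 in EV- against control and -0.0993 to 0.0719 in EV+ against EV-. In EV+ against EV-, *Zfp36* ranged from -0.19 to 0.0229 and *Btg2* from -0.18 to 0.074.

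Counts over all genes moved more, from 34 to 294 in GN against control, 0 to 43 in EV+ and 6 to 126 in EV- against GN, 0 to 57 in EV+ against EV- (49 in the blocked fit of those 6 libraries, an alternative chosen after the data were seen), 114 to 540 in EV+ and 94 to 474 in EV- against control, and 93 to 616 among the 4 groups. The highest came from edgeR's likelihood-ratio test or DESeq2 in each comparison. The cause of these movements was not tested beyond the settings named. Depth was 1121 reads or more in every library for 6 of the 7 genes and 145 to 297 for *Zfp36l1*. Where a library is left out of a pair, the remaining one is assumed to vary like the other groups.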
